A study of Mus musculus with 8 samples.

Results

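The calcium handling genes of enamel forming cells were followed as a set of 9 genes, *Calb1*, *S100g*, *Stim1*, *Stim2*, *Orai1*, *Slc24a4*, *Slc8a1*, *Atp2b1* and *Atp2b4*. They were chosen by gene name from the 23358 genes of the table, by a rule that used no measured value. Earlier results of these data were known when the set was chosen. RNA-seq was made from tissues dissected out of the cervical loop, where the incisor grows throughout life, from mice aged 4 weeks. CLH is the head of the loop, which holds the dental epithelial stem cells, and CLT is the tail, which holds their progenies. Each tissue came from *Med1* cKO mice or from Ctrl mice, which gave 4 groups of 2 libraries. The mice were C57BL/6. cKO mice carried floxed *Med1* and Cre recombinase driven by the *Krt14* promoter, which is active in epithelia and not in dental cells alone, while Ctrl mice were littermates without Cre. According to the study's methods the tissues of several mice were pooled for a library, the animals came from a pair of litters, and the sexes were not told apart. The labels name the cells dental epithelial cells, but the dissected tissue can hold other cell types, whose markers are given below.

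Enamel is a calcium phosphate mineral that is laid down outside the cell by ameloblasts, the epithelial cells of the tooth. During maturation these cells move large amounts of calcium from blood to enamel while their own free calcium stays low. Calbindins bind calcium in the cytosol. STIM proteins sense the filling of the endoplasmic reticulum and open ORAI channels of the plasma membrane, which is store-operated entry. Exchangers driven by the sodium gradient, of which NCKX4 (*Slc24a4*) is required for normal enamel in mouse and human, and the ATP-driven pumps PMCA (*Atp2b* genes) carry calcium out of the cell.

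Levels are in RPKM, that is, read numbers corrected for gene length and for the size of the library, so they can be compared between genes. The libraries held about 26590000 to 34420000 reads, of which 82.2% to 85.6% lay on genes. Of the 9 genes, 7 passed the filter of at least 1 RPKM in at least 2 libraries and were tested. *S100g* and *Slc8a1* did not pass and are described by their values alone. The 2 libraries of a group differed by more than 1.5-fold in 34.6% of the tested genes in Ctrl CLT and in 0.8% to 1.1% in the other groups. *Med1* itself had 7.71 and 9.12 RPKM in the Ctrl and 7.1 and 7.03 in the cKO libraries of CLH, and 4.83 and 8.71 in the Ctrl and 9.15 and 8.96 in the cKO libraries of CLT. Over the whole gene it was therefore not lower in the CLT libraries labelled cKO. The deletion removes only some exons, and a value over the whole gene does not check it. Directions below rest on the labels.

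The markers of other cell types differed between the CLT libraries, and this stands beside every CLT result. The summed level of 7 ameloblast markers (*Amelx*, *Ambn*, *Enam*, *Mmp20*, *Klk4*, *Amtn* and *Odam*) was 12500 to 14300 RPKM in the 4 CLH libraries, then 84600 and 37400 in Ctrl CLT but 19.7 and 15.8 in cKO CLT. All 7 were called lower in cKO CLT, and none was at 0. The sum of 5 markers of odontoblast and bone was 2140 and 2470 RPKM in Ctrl CLT against 377 and 472 in cKO CLT. Nearly all of the cKO CLT sum was *Col1a1* (376 and 472), which stood at 1070 and 1330 in Ctrl CLT. *Dspp* had 543 and 644 RPKM in Ctrl CLT against 0.145 and 0.174 in cKO CLT. *Bglap* had 490 and 397 against 0.686 and 0.411, and *Dmp1* had 15.6 and 17.9 against 0.0517 and 0.0664. *Ibsp* had 22.4 and 75.6 in Ctrl CLT and was at 0 in both cKO CLT libraries. In the other direction, the sum of 5 hair keratins was 2690 and 9.8 RPKM in Ctrl CLT against 7900 and 8680 in cKO CLT. The sum of 7 skeletal muscle markers was 778 and 57.5 against 2170 and 2350, the sum of 5 epidermis markers was 234 and 3.83 against 705 and 720, and the sum of 4 melanocyte markers was 125 and 8.16 against 380 and 383. Basal epithelial markers summed to 1320 and 824 RPKM in Ctrl CLT against 1690 and 1920 in cKO CLT, so epithelium as such was present in all 4 libraries. Ctrl CLT 1 thus held more hair, muscle, epidermis and melanocyte RNA than Ctrl CLT 2. The part of these cell types in the calcium results was not tested. In bulk tissue, fewer cells of a type and less RNA per cell cannot be told apart.

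**Figure D1:**
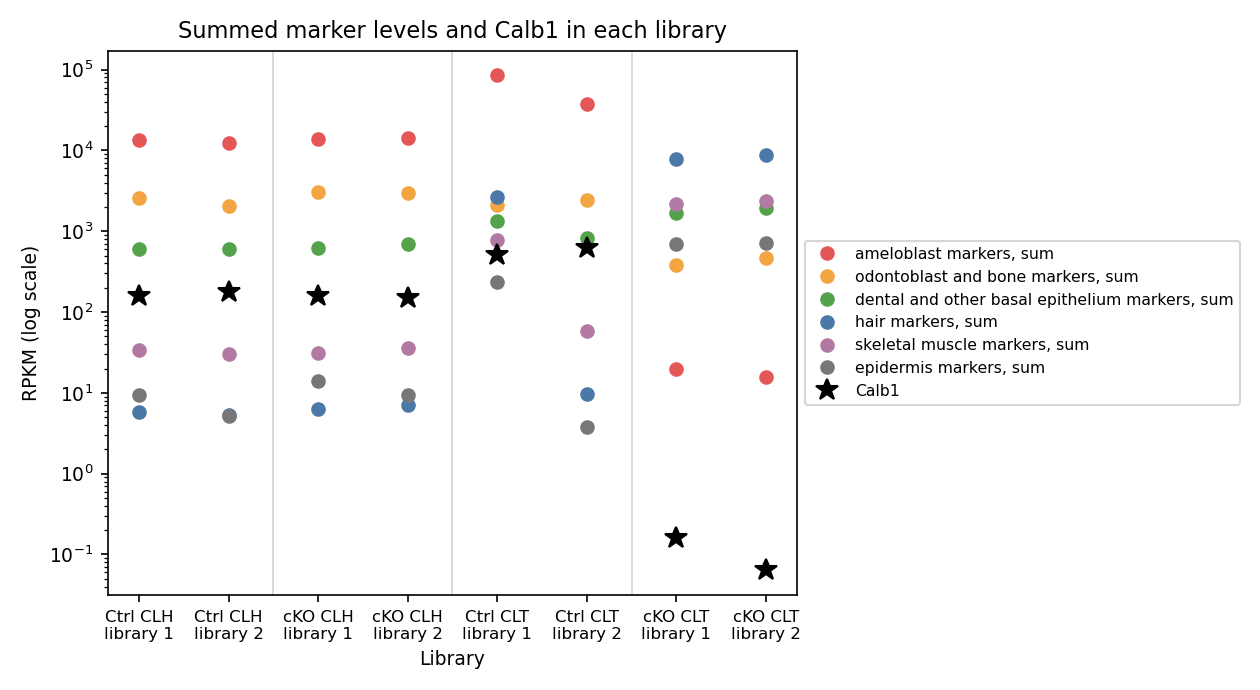
RPKM on a log axis in each of the 8 libraries for 6 summed marker lists (circles) and for *Calb1* (stars). *Calb1* and the ameloblast sum are low in the 2 cKO CLT libraries, at 0.162 and 0.0639 and at 19.7 and 15.8 RPKM, where the hair sum is 7900 and 8680.

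To show the DNA in front of these genes, RefSeq promoter windows of the same build (GRCm38.p6, mm10) were read. Of the 9 genes, 8 had a window, *Atp2b1* had 2, and *Calb1* had none. The 250 bases before the transcript start are printed for *Slc24a4*, the exchanger with the largest difference between the CLT groups of the set after *Calb1*, for *S100g*, the one gene of the set whose window held a searched motif, and for the pumps *Atp2b1* and *Atp2b4*, whose levels differed in opposite directions. Capitals mark the motifs.
*Slc24a4* (chr12:102128477-102128726, plus strand): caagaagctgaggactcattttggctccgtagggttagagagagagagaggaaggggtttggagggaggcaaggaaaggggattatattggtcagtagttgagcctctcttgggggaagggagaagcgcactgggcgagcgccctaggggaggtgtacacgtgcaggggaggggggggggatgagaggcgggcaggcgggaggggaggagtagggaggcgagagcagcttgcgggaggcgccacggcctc
*S100g* (chrX:162964600-162964849, minus strand): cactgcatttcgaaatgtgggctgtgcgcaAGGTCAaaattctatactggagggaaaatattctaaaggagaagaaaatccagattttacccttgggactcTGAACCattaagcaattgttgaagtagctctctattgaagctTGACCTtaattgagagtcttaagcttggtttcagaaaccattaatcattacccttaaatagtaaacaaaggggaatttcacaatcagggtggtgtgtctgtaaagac
*Atp2b1* (chr10:98914902-98915151, plus strand): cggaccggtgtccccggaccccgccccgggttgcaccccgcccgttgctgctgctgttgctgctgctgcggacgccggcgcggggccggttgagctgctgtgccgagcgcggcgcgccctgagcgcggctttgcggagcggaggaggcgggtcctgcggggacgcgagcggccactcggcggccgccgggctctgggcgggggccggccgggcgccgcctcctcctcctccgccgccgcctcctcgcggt
*Atp2b4* (chr1:133753748-133753997, minus strand): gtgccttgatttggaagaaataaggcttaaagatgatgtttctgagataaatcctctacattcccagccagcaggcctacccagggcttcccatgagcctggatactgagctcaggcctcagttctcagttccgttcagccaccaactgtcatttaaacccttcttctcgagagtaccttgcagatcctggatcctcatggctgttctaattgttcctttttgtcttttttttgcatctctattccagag
The motifs searched on both strands were the letters AGGTCA, the letters AGTTCA and the letters GGTTCA, which can be one arm of sites bound by the vitamin D receptor and related nuclear receptors, a pair of these arms as a direct repeat spaced by 3 bases, and the letters TGTGGT, the core bound by RUNX factors. The *S100g* window held AGGTCA once on each strand and GGTTCA once, with no overlap among them and no spaced pair. No motif was found in the windows of the other 7 genes. Of 32851 promoter windows of the same length, 16.3% held AGGTCA, while 14% held AGTTCA and 10.4% held GGTTCA. The RUNX core was in 16.8% and the spaced pair in 0.0244%. G and C made up 78.4% of the bases before the start in *Stim1*, 74.8% in *Stim2*, 70.8% in *Orai1*, 78.4% and 80.8% in the *Atp2b1* windows and 62.8% in *Slc24a4*, against a median of 52.4% over all windows. They made up 50.4% in *Slc8a1*, 45.6% in *Atp2b4* and 38.4% in *S100g*. A match is a run of letters and not a shown binding site.

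The cytosolic calcium binding proteins came first. *Calb1* (chr4:15881264-15906709), which encodes calbindin-D28k, was the most abundant gene of the set in CLH and in Ctrl CLT. It had 160 and 175 RPKM (Ctrl) and 156 and 149 (cKO) in CLH, against 504 and 614 (Ctrl) and 0.162 and 0.0639 (cKO) in CLT. The CLH groups lay close together, and the cKO CLT libraries lay below all others, 919 times or more below those of cKO CLH. They held 13 reads (exact Poisson 95% interval up to 22.2) and 5 reads (up to 11.7), against 42314 and 46804 reads in Ctrl CLT, and these intervals cover counting error only. The mean was 559 ± 77.4 RPKM in Ctrl CLT and 0.113 ± 0.0692 in cKO CLT (SD, n = 2), a ratio of 4960, and the ratio ran from 3120 to 9600 over the pairs of libraries. On the log2(RPKM + 1) scale, which understates the change of genes near 0, *Calb1* fell by 8.97 in cKO CLT (SE 0.17, limma adjusted p = 0.0049). Its fall was the 6th largest of 14148 genes tested. In the same libraries the ameloblast sum was lower by 3430-fold. In Ctrl CLT most of that sum was *Amelx* (48800 and 18600 RPKM) and *Ambn* (28800 and 10900). *Klk4* (187 and 206) and *Odam* (871 and 3670) were higher in Ctrl CLT 2, where the sum was lower. In cKO CLT the largest part was *Amtn* (6.88 and 8.72). By a ratio added after the data had been seen, per 1000 RPKM of the ameloblast sum, *Calb1* stood at 10.4 to 14 in the 4 CLH libraries, at 5.96 and 16.4 in Ctrl CLT, against 8.2 and 4.04 in cKO CLT. Relative to this sum, cKO CLT 1 thus lay between the Ctrl CLT libraries and cKO CLT 2 below both. The other 6 genes tested were higher on this scale in both cKO CLT libraries than in both Ctrl CLT libraries. There *Slc24a4* stood at 0.591 and 2.17 in Ctrl CLT against 208 and 316 in cKO CLT, and *Stim1* at 0.649 and 1.31 against 1570 and 2060. A gene that fell less than the ameloblast sum is higher on this scale by arithmetic. These values are therefore not a result about the 6 genes, and the share of all tested genes that were higher was not computed. In voom, a fit of the recovered reads, the fall of *Calb1* itself in cKO CLT did not pass (adjusted p = 0.052).

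*S100g* (chrX:162961992-162964599), which encodes the small calbindin-D9k, was nearly absent. It had 14 reads in Ctrl CLT 1 (0.997 RPKM), 1 read in cKO CLH 2 (0.0705 RPKM) and 0 reads in the other 6 libraries, where a count of 0 allows up to 3 reads, or 0.182 to 0.235 RPKM. The groups overlapped in both regions, and the difference between the 2 Ctrl CLT libraries was larger than any between groups. Calbindin RNA in CLH and in Ctrl CLT was thus almost entirely that of *Calb1*.

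Store-operated entry was represented by the sensors *Stim1* (chr7:102267824-102436855) and *Stim2* (chr5:53998523-54121057) and by the channel gene *Orai1* (chr5:123015074-123030452). *Stim1* had 25.5 and 23.9 RPKM (Ctrl) and 25.6 and 25.1 (cKO) in CLH, against 54.9 and 48.9 (Ctrl) and 30.9 and 32.6 (cKO) in CLT. Both cKO CLT libraries lay below both Ctrl CLT libraries and above all CLH libraries. The ratio of means in CLT was 1.63 (1.5 to 1.78 over pairs of libraries), and the log2 difference of -0.69 (SE 0.14) did not pass the threshold (limma adjusted p = 0.076).

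*Stim2* had 7.66 and 7.65 RPKM (Ctrl) and 7.5 and 7.41 (cKO) in CLH, against 18.7 and 33.1 (Ctrl) and 6.58 and 6.32 (cKO) in CLT. The cKO CLT libraries were the lowest of the 8, and the 2 Ctrl CLT libraries were far apart. The ratio of means in CLT was 4.02 (2.85 to 5.24), with a log2 difference of -1.80 (SE 0.31) and an adjusted p = 0.066 in limma. *Stim1* was therefore the more abundant sensor in every library, and its ratio to *Stim2* was higher in CLH and in cKO CLT than in Ctrl CLT.

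*Orai1* was low throughout, with 3.42 and 2.9 RPKM (Ctrl) and 3.85 and 4.01 (cKO) in CLH, against 6.87 and 3.52 (Ctrl) and 3.98 and 4.92 (cKO) in CLT. The CLT groups overlapped, and the log2 difference was -0.13 (SE 0.34, limma adjusted p = 0.79). Without Ctrl CLT 1 it turned to 0.27 (adjusted p = 0.16), and without Ctrl CLT 2 it was -0.53 and passed (adjusted p = 0.033). *Orai1* shares exon bases with the opposite-strand gene *Gm2479*, and the strand setting of the counting is not given in the sources used here. Its relatives were more abundant. *Orai2*, another channel of the family, had 28.8 and 24.1 RPKM in Ctrl CLT against 10.2 and 11.2 in cKO CLT (log2 difference -1.22, limma adjusted p = 0.06). *Orai3* had 13.6 and 14.1 against 5.93 and 5.6 (log2 difference -1.13, adjusted p = 0.06). Whether the 3 channel genes differed from each other in response was not tested.

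**Figure D2:**
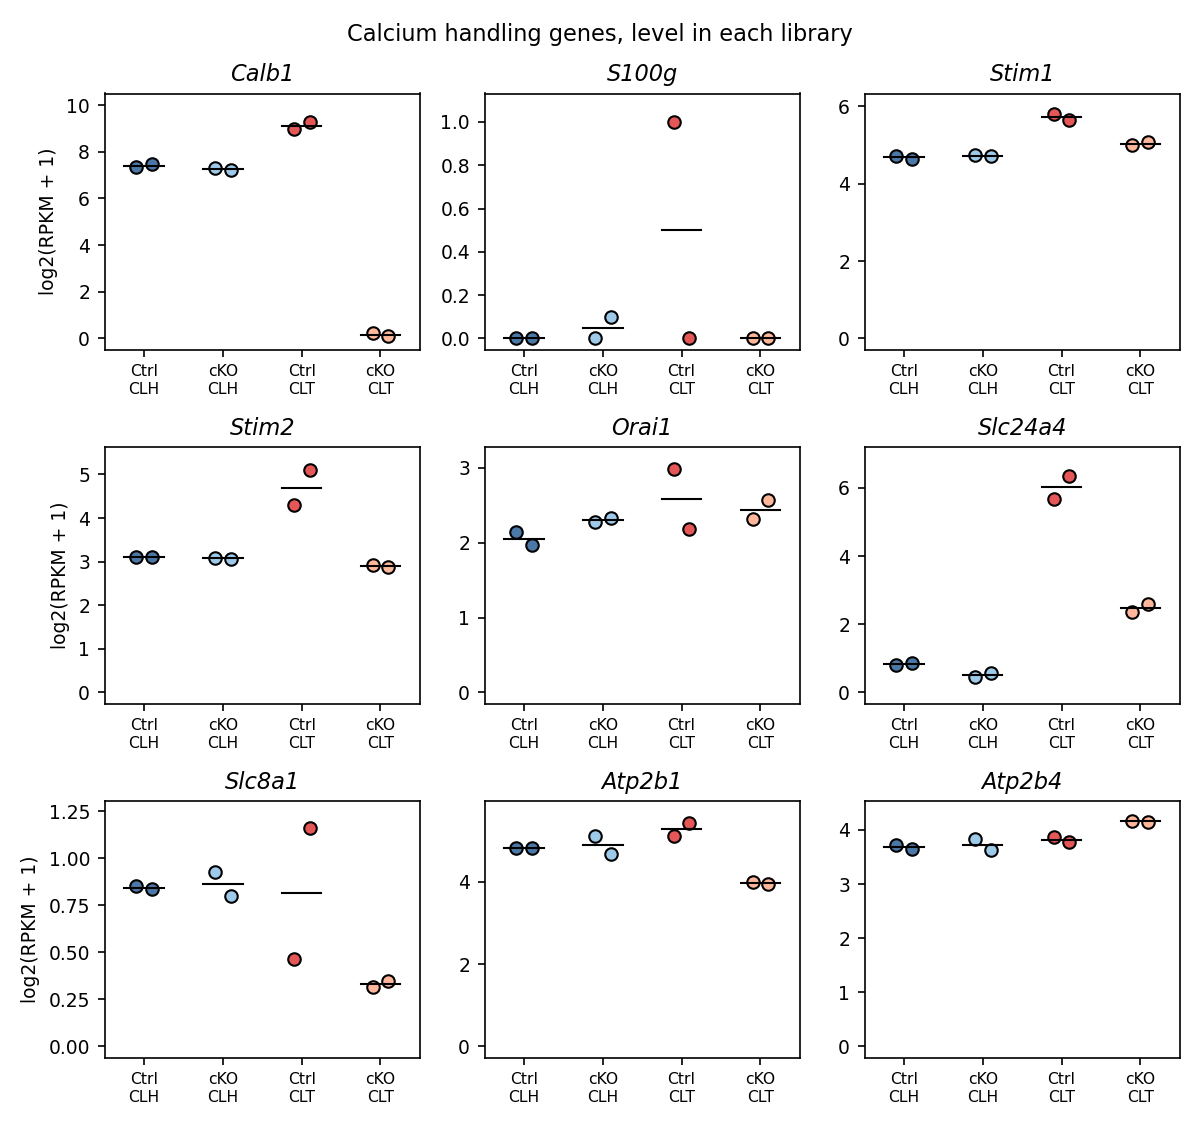
log2(RPKM + 1) of the 9 genes in each library (circles) by group, with the group mean as a line; each panel has its own scale starting at 0. *Calb1*, *Slc24a4*, *Stim1*, *Stim2* and *Atp2b1* are lower in both cKO CLT libraries than in both Ctrl CLT libraries, and the CLH groups lie close together.

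Among the exporters, *Slc24a4* (chr12:102129419-102266749) set the regions apart most. It had 0.75 and 0.836 RPKM (Ctrl) and 0.382 and 0.485 (cKO) in CLH, against 50 and 81.2 (Ctrl) and 4.09 and 4.99 (cKO) in CLT. The 4 groups did not overlap. Its reads were 54 and 47 (Ctrl) and 27 and 30 (cKO) in CLH, against 3059 and 4516 (Ctrl) and 240 and 285 (cKO) in CLT. The mean in CLT was 65.6 ± 22.1 RPKM in Ctrl and 4.54 ± 0.638 in cKO (SD, n = 2), a ratio of 14.4 with a range of 10.0 to 19.8 over pairs of libraries. *Slc24a4* fell by 3.55 on the log2 scale in cKO CLT (SE 0.29, limma adjusted p = 0.037). This call was lost in voom (adjusted p = 0.067), without cKO CLT 1 (adjusted p = 0.2), without cKO CLT 2 (adjusted p = 0.18), with no filter on low values (adjusted p = 0.091) and with a crossed replicate block (adjusted p = 0.067), while the log2 difference stayed between -3.89 and -3.21. The fall of *Slc24a4* was smaller than that of the ameloblast sum, and cKO CLT still held about 10.5 times the *Slc24a4* level of cKO CLH.

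The plasma membrane pumps *Atp2b1* (chr10:98915152-99026143) and *Atp2b4* (chr1:133702674-133753747) differed in opposite directions. *Atp2b1*, the widely expressed PMCA1, had 27.2 and 27.0 RPKM (Ctrl) and 33.4 and 24.5 (cKO) in CLH, against 33.4 and 42.1 (Ctrl) and 14.9 and 14.3 (cKO) in CLT. The cKO CLT libraries were the lowest of the 8, with a ratio of means of 2.58 (2.24 to 2.93) and a log2 difference of -1.30 (SE 0.18, limma adjusted p = 0.06). *Atp2b4*, which encodes PMCA4, had 12.1 and 11.6 RPKM (Ctrl) and 13.2 and 11.3 (cKO) in CLH, against 13.6 and 12.7 (Ctrl) and 16.9 and 16.8 (cKO) in CLT. Both cKO CLT libraries were above all others, with a ratio of means of 1.28 (1.23 to 1.33) and a log2 difference of 0.33 (SE 0.14, adjusted p = 0.18). It passed only without Ctrl CLT 1, at 0.38 (adjusted p = 0.023). *Atp2b4* shares exon bases with the same-strand microRNA gene *Mir6903*.

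*Slc8a1* (chr17:81373105-81738377), the sodium-calcium exchanger NCX1, had 0.806 and 0.786 RPKM (Ctrl) and 0.9 and 0.739 (cKO) in CLH, against 0.38 and 1.24 (Ctrl) and 0.244 and 0.274 (cKO) in CLT. The cKO CLT libraries were the lowest, but Ctrl CLT 1 stood nearer to them than to Ctrl CLT 2. *Slc8a1* shares exon bases with 2 opposite-strand genes, *AC122399.1* and *Gm11096*.

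The order of the levels within the set changed with region and genotype. In Ctrl CLH it ran *Calb1*, *Atp2b1*, *Stim1*, *Atp2b4*, *Stim2*, *Orai1*, *Slc8a1*, *Slc24a4* and *S100g*, and of neighbours only *Slc8a1* and *Slc24a4* overlapped. cKO CLH had the same order, and there only *Atp2b1* and *Stim1* overlapped. In Ctrl CLT *Slc24a4* stood in the second place behind *Calb1* and overlapped with *Stim1*, the next gene, and *Slc8a1* and *S100g* overlapped at the end. In cKO CLT the order began with *Stim1* (31.7 RPKM), *Atp2b4* (16.8) and *Atp2b1* (14.6), followed by *Stim2* (6.45), *Slc24a4* (4.54) and *Orai1* (4.45), of which the last pair overlapped. *Calb1* stood there in place 8 of 9.

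For the effect of the genotype in CLT, 2 of the 7 tested genes, *Calb1* and *Slc24a4*, were called lower and 0 higher at an adjusted p under 0.05, where 1.68% of all tested genes were called lower and 0.0777% higher. The cKO CLT libraries lay below both Ctrl CLT libraries in 5 of the 7 and above them in 1, against 35.1% and 37.2% of all tested genes. The median log2 difference of all tested genes was -0.01. The number of members called depended on the fit. It was 6 without Ctrl CLT 1, where 31.4% of all tested genes were called higher and 38.1% lower, and also 6 without Ctrl CLT 2, where 29.1% were higher and 23% lower, so that these counts stand beside 69.5% and 52.1% of all genes. It was 1 with cKO CLT 1 or cKO CLT 2 left out, where 0.0777% of all genes were called lower, and 0 in voom, which called no gene of the table. A permutation test of 2 against 2 libraries could not give a p under 0.333, and p-values here measure the spread between the 2 libraries of a group. The labels do not say which library came from which litter.

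In CLH, 0 of the 7 were called by limma, and none had an unadjusted p under 0.05 apart from *Slc24a4*. Of all tested genes 0.0% were called in either direction, and the unadjusted p was under 0.05 for 684 higher and 343 lower genes. voom also called 0 of the 7. The log2 differences were 0.04 for *Stim1* (limma adjusted p = 0.89), -0.03 for *Stim2* (0.92), 0.25 for *Orai1* (0.69), 0.08 for *Atp2b1* (0.91) and 0.04 for *Atp2b4* (0.93). *Calb1* was at -0.13 (adjusted p = 0.71). *Slc24a4* was lower in both cKO CLH libraries, with a ratio of means of 1.83 and a log2 difference of -0.32 (SE 0.06, adjusted p = 0.69). Libraries of the groups did not overlap in 4 of the 7 genes, namely *Calb1*, *Stim2*, *Slc24a4* and *Orai1*, against 38.7% of all tested genes.

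**Figure D3:**
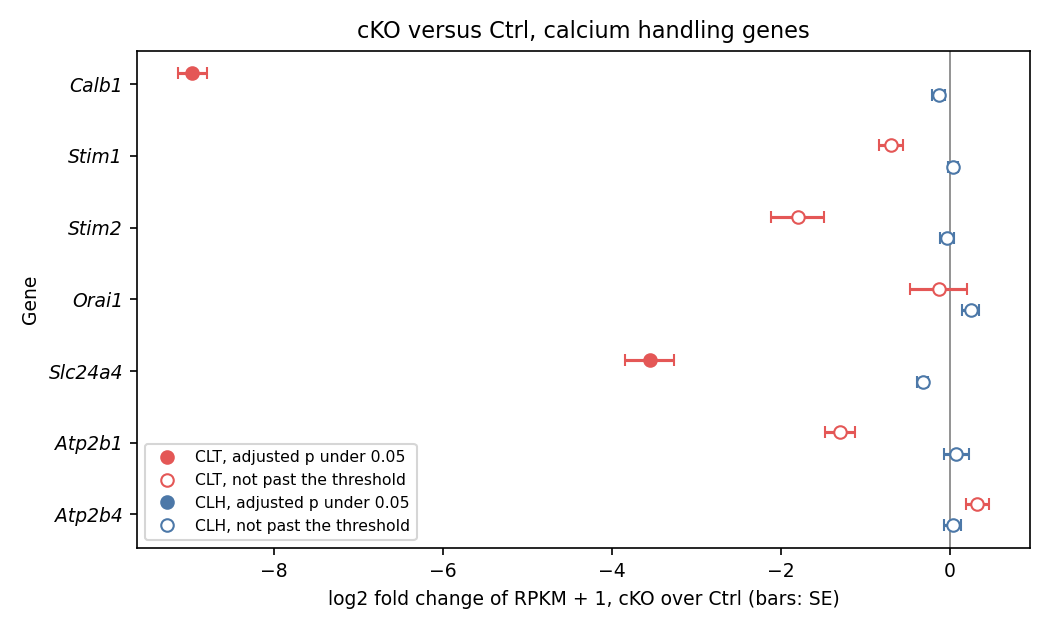
log2 fold change of RPKM + 1 (x axis), cKO over Ctrl, for the 7 tested genes in CLT and in CLH, with SE bars; filled circles passed an adjusted p under 0.05. *Calb1* (-8.97) and *Slc24a4* (-3.55) passed in CLT, and the CLH values lie between -0.32 and 0.25.

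An interaction term, fitted to all 8 libraries, tested whether the cKO effect differed between the regions. It was called for 5 of the 7 genes, all with the lower value in CLT, where 9.58% of all tested genes were called lower and 8.05% higher. The interaction was -8.84 for *Calb1* (SE 0.17, limma adjusted p = 2.9e-05) and -3.23 for *Slc24a4* (SE 0.33, adjusted p = 0.0051). It was -1.77 for *Stim2* (SE 0.34, adjusted p = 0.024), -1.38 for *Atp2b1* (SE 0.24, adjusted p = 0.019) and -0.73 for *Stim1* (SE 0.13, adjusted p = 0.022). *Orai1* (-0.38, adjusted p = 0.49) and *Atp2b4* (0.30, adjusted p = 0.21) did not pass. The fit gives each gene 1 variance over all 4 groups, although the 2 libraries differed more in Ctrl CLT than in the other groups. In the CLT fit alone *Stim2*, *Atp2b1* and *Stim1* did not pass. How far their interaction calls rest on the shared variance was not tested. *Calb1* passed in every alternative and with each library left out. *Slc24a4* lost its call in voom (adjusted p = 0.079). *Stim1* and *Stim2* lost theirs without any single CLH or cKO CLT library (adjusted p of 0.091 to 0.12), as did *Atp2b1* except without cKO CLH 2 (adjusted p = 0.046).

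The step from CLH to CLT compares bulk tissue of the stem cell region with bulk tissue of the progeny region. The ameloblast sum was already 12500 to 14300 RPKM in CLH. The hair sum was 5.26 to 7.0 in CLH and 7900 and 8680 in cKO CLT. The part of cell types in the differences between regions was not tested. In Ctrl, the 7 tested genes were higher in both CLT libraries than in both CLH libraries, and *S100g* and *Slc8a1* overlapped. Of all tested genes 15.2% were higher in both and 36.8% lower. *Slc24a4* passed the filter only through CLT, so the count over tested genes is a description. *Slc24a4* had the largest step, with a ratio of means of 82.7 (59.8 to 108 over pairs of libraries) and a log2 difference of 5.17 (SE 0.28, limma adjusted p = 0.13). The ratio was 3.34 for *Calb1* (2.88 to 3.85), 3.38 for *Stim2* (2.44 to 4.33), 2.1 for *Stim1*, 1.64 for *Orai1*, 1.39 for *Atp2b1* and 1.11 for *Atp2b4*. None of the 7 passed in limma, where 0.00707% of all tested genes (1 gene) was called, whichever the direction, and the unadjusted p was under 0.05 for 587 higher and 1273 lower genes. In a fit of all 8 libraries together, *Slc24a4* (adjusted p = 0.001), *Calb1* (0.0043), *Stim1* (0.0078) and *Stim2* (0.026) passed, where 5.92% of all tested genes passed in either direction. voom called none. Without Ctrl CLT 1 there were 5 members that passed, beside 3.31% of all genes, and without Ctrl CLT 2 there were 6, beside 53.3%.

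In cKO, the same step looked different. *Calb1* fell by 7.11 on the log2 scale from CLH to CLT (limma adjusted p = 2.3e-10), and *Atp2b1* fell by 0.92 (adjusted p = 0.00033). *Slc24a4* rose by 1.95 (adjusted p = 1.3e-06, ratio of means 10.5), *Atp2b4* by 0.44 (adjusted p = 0.0041) and *Stim1* by 0.31 (adjusted p = 0.0087). *Stim2* (-0.18, adjusted p = 0.11) and *Orai1* (0.14, adjusted p = 0.3) did not pass. These 3 rises and 2 falls stand beside 28.9% of all tested genes called higher and 45.1% called lower. Scaling mattered here, because median-of-ratios scaling moved the libraries by -0.11 to -0.093 in CLH and by -0.011 to 0.155 in CLT on the log2 scale. Under it *Stim2* was at 0.01, *Orai1* passed at 0.32 (adjusted p = 0.036), and 5270 genes of the table were called higher and 4884 lower in place of 4084 and 6384. *Stim1* lost its call without cKO CLT 2 (adjusted p = 0.069), and *Atp2b4* lost it without cKO CLT 1 (adjusted p = 0.062) or cKO CLT 2 (adjusted p = 0.06). The comparisons in Ctrl and cKO use the same CLH and CLT libraries as the genotype comparisons and are not independent of them.

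**Figure D4:**
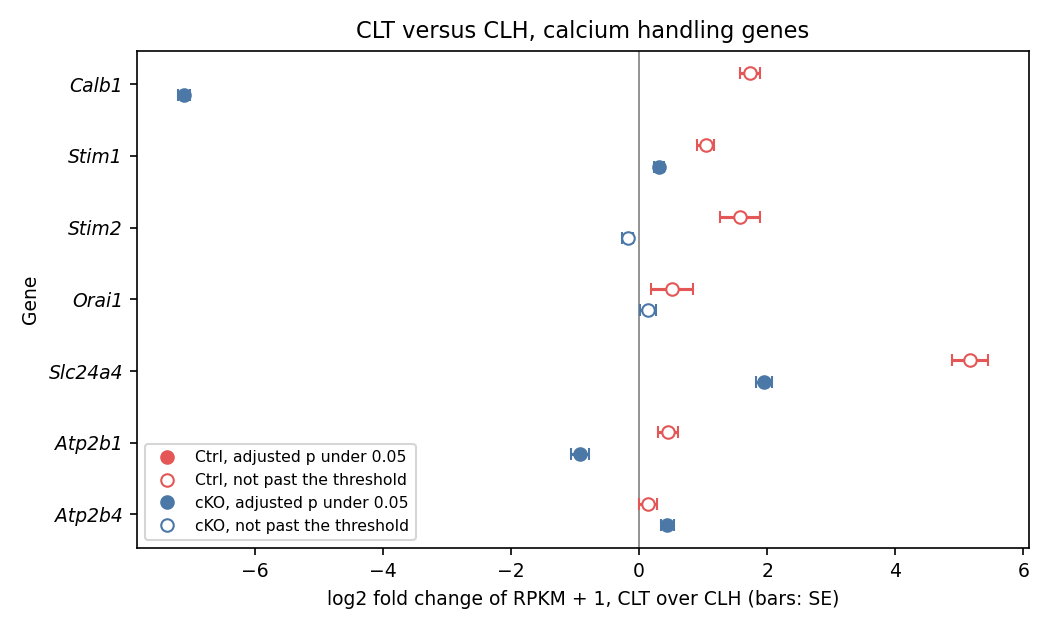
log2 fold change of RPKM + 1 (x axis), CLT over CLH, for the 7 tested genes in Ctrl and in cKO, with SE bars; filled circles passed an adjusted p under 0.05. All 7 values are positive in Ctrl and none passed, whereas in cKO *Calb1* is at -7.11 and *Slc24a4* at 1.95.

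A wider list of 68 calcium pathway genes by role, the 9 included, was read in the same fits. All 68 were in the table, 7 of them under an older symbol, and 55 were tested. In CLT, 3 of the 55 were called lower and 0 higher, beside 1.68% and 0.0777% of all tested genes. Of the log2 differences 40 were negative and 15 positive, with a median of -0.51, against -0.01 over all tested genes. The share of negative differences among all tested genes was not counted. Beyond the 9 genes, 48 were tested with a median of -0.47, and 1 was called. That gene was *Itpr1*, the IP3 receptor that releases calcium from the endoplasmic reticulum, with 25.2 and 15.8 RPKM in Ctrl CLT against 1.62 and 1.78 in cKO CLT (log2 difference -2.96, limma adjusted p = 0.042). In CLH 0 of the 55 were called, beside 0.0% of all tested genes, and the median was 0.04, against -0.01 over all tested genes.

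By role, all 7 tested genes of store-operated entry had negative log2 differences in CLT, from -1.80 (*Stim2*) to -0.13 (*Orai1*). Their median was -0.69, against -0.01 over all tested genes, and 0 were called. The 8 tested genes of plasma membrane extrusion had a median of -0.82 and ran from *Slc24a4* to *Slc24a5*, an exchanger of pigment cells, at 1.65 (adjusted p = 0.06). Of 7 genes of the endoplasmic reticulum, *Itpr1* was lowest and *Atp2a1*, the calcium pump of fast skeletal muscle, was highest, with 55.3 and 3.71 RPKM in Ctrl CLT against 181 and 199 in cKO CLT (log2 difference 3.55, adjusted p = 0.13). *Atp2a2*, the pump SERCA2 of most cells, had 136 and 157 against 64.3 and 61.8 (log2 difference -1.20, adjusted p = 0.056). Of the Golgi pumps, *Atp2c1* was at -0.51 (adjusted p = 0.11) and *Atp2c2* at 3.45 (adjusted p = 0.13). The muscle calcium buffer *Pvalb* was the highest of the cytosolic binding genes at 3.10 (adjusted p = 0.16), with 60.8 and 4.25 RPKM in Ctrl CLT against 154 and 153 in cKO CLT. In *Atp2a1*, *Atp2c2* and *Pvalb*, as in the hair and muscle sums, Ctrl CLT 1 stood between Ctrl CLT 2 and the cKO libraries.

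The 8 mitochondrial genes ran from *Efha2* at -1.06 (adjusted p = 0.19) to *Slc24a6*, the mitochondrial sodium-calcium exchanger, at 1.27 (adjusted p = 0.071), with a median of -0.17. The 8 calcium binding proteins of the secretory pathway had a median of -0.44, from *Rcn3* at -2.12 (adjusted p = 0.06) to *Nucb2* at 0.13 (adjusted p = 0.58). Among other entry channels the channel kinase gene *Trpm7* had 65.4 and 140 RPKM in Ctrl CLT against 11.6 and 10.1 in cKO CLT (log2 difference -3.03, adjusted p = 0.06), and *Trpv6*, a channel of calcium absorbing epithelia, was at 1.99 (adjusted p = 0.11). The vitamin D receptor gene *Vdr* had 37.9 and 32.8 RPKM in Ctrl CLT against 73.5 and 76.2 in cKO CLT (log2 difference 1.07, adjusted p = 0.06), and its partner *Rxra* was at 0.84 (adjusted p = 0.098). All adjusted p values in these sentences are from limma over all tested genes.

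**Figure D5:**
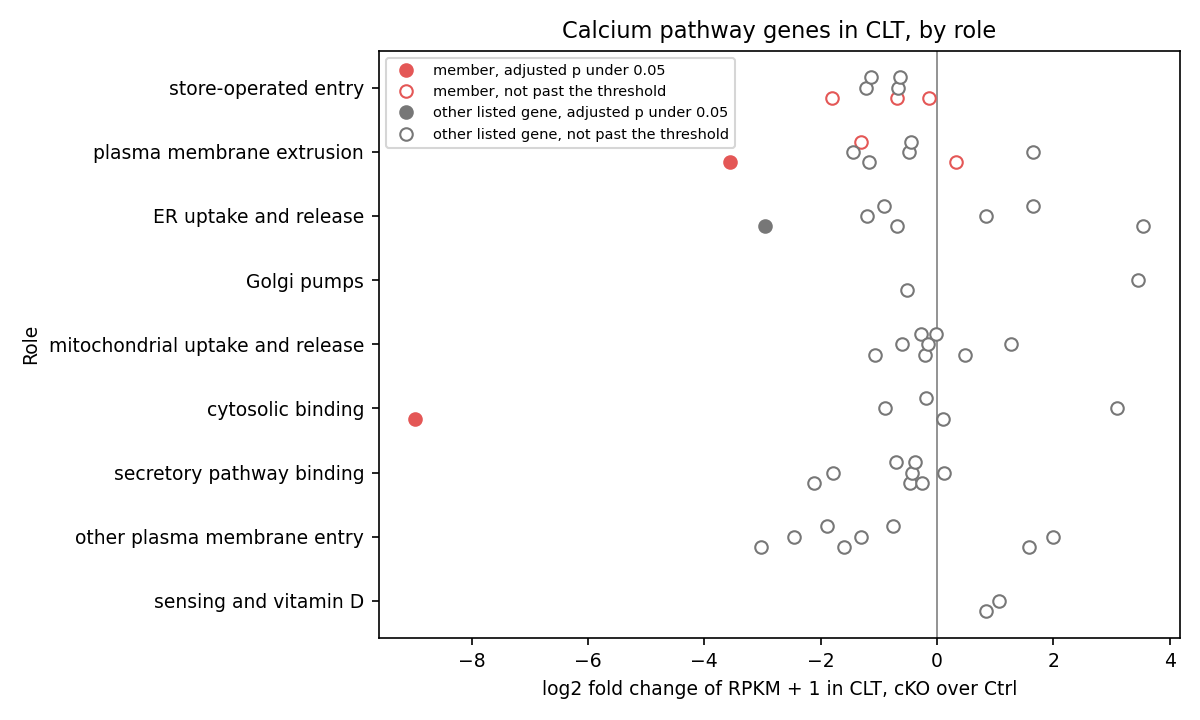
log2 fold change of RPKM + 1 in CLT (x axis), cKO over Ctrl, for the 55 tested calcium pathway genes by role, with the 9-gene set in red and the other genes in grey; filled circles passed an adjusted p under 0.05. *Calb1*, *Slc24a4* and *Itpr1* passed, and all 7 genes of store-operated entry lie below 0. The median over all tested genes is -0.01.

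In the interaction, 16 of the 55 were called lower in CLT and 4 higher, beside 9.58% and 8.05% of all tested genes. With 1 library left out the 16 became 3 to 37 and the 4 became 0 to 13. The counts were 3 to 5 and 0 with any single CLH or cKO CLT library left out, where 1.4% to 1.99% of all tested genes were called in either direction. They were 37 and 13 without Ctrl CLT 1, beside 63.1% of all genes, and 27 and 11 without Ctrl CLT 2, beside 46.6%. The other settings left 14 to 18 lower and 1 to 5 higher. Beside the 5 genes of the set the lower ones were *Orai2* (-1.29), *Orai3* (-1.09), *Atp2a2* (-1.28), *Itpr1* (-3.00), *Ccdc109b* (-0.76), *Rcn3* (-2.36), *Sdf4* (-0.72), *Trpm7* (-3.04), *Cacna1c* (-1.46), *Cacna1d* (-1.60) and *Cacna1g* (-2.62), with limma adjusted p from 0.0044 to 0.049. The higher ones were *Slc24a5* (1.78), *Ryr1* (1.61), *Slc24a6* (1.29) and *Trpm6* (1.59). From CLH to CLT, 0 of the 55 passed in Ctrl, beside 0.00707% of all tested genes, with a median of 0.12 against -0.13. In cKO 20 were called higher and 30 lower, beside 28.9% and 45.1% of all tested genes, with a median of -0.45 against -0.18.

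In cKO the largest rises from CLH to CLT in the list were those of *Atp2a1* (6.16), *Pvalb* (5.97) and *Atp2c2* (5.30). *Vdr* rose by 1.65 and *Rxra* by 0.79, and genes also called higher included *Slc24a5*, *Slc24a6*, *Ryr1*, *Trpv6*, *Trpm6*, *Atp2a2*, *Atp2a3*, *Itpr2*, *Atp2c1*, *1500032L24Rik* and *Letm1*. After *Calb1* the largest falls were those of the voltage-gated channel gene *Cacna1g* (-3.35), *Rcn3* (-3.07), *Cacna1h* (-2.95) and *Itpr1* (-2.57). Of the 8 secretory pathway genes 7 fell, where 45.1% of all tested genes did, namely *Calr*, *Canx*, *Rcn1*, *Rcn2*, *Rcn3*, *Sdf4* and *Nucb1*. Other genes called lower included *Orai3*, *Tmem66*, *Tmem110*, *Slc8a2*, *Slc8a3*, *Slc24a2*, *Slc24a3*, *Itpr3*, *Ccdc109a*, *Ccdc109b*, *Efha2*, *Calm2*, *Calm3*, *Trpv4*, *Trpm7*, *Cacna1c* and *Cacna1d*. The list counts in CLT moved with the Ctrl CLT libraries as well. Without Ctrl CLT 1, 13 of the 55 were called higher and 38 lower, beside 31.4% and 38.1% of all tested genes. Without Ctrl CLT 2, 11 were higher and 27 lower, beside 29.1% and 23%.

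The genes of the table whose pattern was most like each member were found by Pearson's r of log2(RPKM + 1) over the 8 libraries, given as a description, since the 8 points fall into 4 groups and share library and dissection. For *Stim1* the 3 nearest were *Atp6v0a1* (r = 0.9972), *Atp6v1a* (0.9858) and *Atp6v1c1* (0.9849), which encode subunits of the vacuolar proton pump. *Atp6v0a1* had 18.5 and 17.5 RPKM (Ctrl) and 20.5 and 20.3 (cKO) in CLH, against 67.8 and 57.2 (Ctrl) and 26.8 and 28.0 (cKO) in CLT. For *Stim2* they were *Wdr72* (0.9989), *Slc26a1* (0.9968) and *Pvrl3* (0.9951). *Wdr72*, mutated in inherited enamel defects, had 3.86 and 10.7 RPKM in Ctrl CLT and was listed at 0 in both cKO CLT libraries.

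For *Slc24a4* the nearest were *Atp6v1c1* (0.9922), *Rcan1* (0.9903), an inhibitor of calcineurin, and *Atp2a2* (0.9864). *Rcan1* had 13.1 and 12.1 RPKM in Ctrl CLH and 116 and 225 in Ctrl CLT, against 38.2 and 37.9 in cKO CLT. For *Calb1* they were *Gspt2* (0.9985), *Fndc5* (0.9977) and *Cdk18* (0.9977), and none of these fell as far, with *Gspt2* at 4.85 and 4.74 RPKM in Ctrl CLT against 0.358 and 0.368 in cKO CLT. For *Atp2b1* they were *Uhrf1bp1l*, *Slc33a1* and *Skil* (0.9957 to 0.9945), and for *Atp2b4* *Uchl4*, *Atf6* and *Entpd5* (0.9933 to 0.985). For *Orai1* they were *Lrp10*, *Ndufv1* and *Tbc1d2* (0.9895 to 0.9771). Those of the scarce genes were *Tlr3*, *Nanos1* and *Grk4* for *Slc8a1* (0.9983 to 0.995) and *Gatsl3*, *Igfals* and *Htr1d* for *S100g* (0.9904 to 0.9692), and the *S100g* values rest on Ctrl CLT 1. Among the members themselves, r was 0.98 between *Stim1* and *Slc24a4*, 0.95 between *Calb1* and *Atp2b1*, 0.88 between *Stim2* and *Slc24a4*, 0.84 between *Stim1* and *Stim2*, and -0.84 between *Calb1* and *Atp2b4*.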

How the data were processed

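RNA-seq libraries of *Med1* cKO and Ctrl mice were grouped by sample title into 4 groups of 2, by region (CLH or CLT) and genotype. The authors aligned reads to mm10 with STAR 2.6.0b-1 after Trim Galore 0.4.3.1, counted them with featureCounts 1.6.3 and named DESeq2 2.11.40.2 for differential expression, per the submitters' processing notes. They deposited 1 table of RPKM values and gene lengths for 23358 genes. The annotation, the strand setting and the total behind the RPKM are not given in the sources used here. Rows whose name occurs more than once (69 rows) entered the filter and the fits like the others. They were left out of symbol matching and of the search for the genes most alike. The number of per-sample columns not used was 0.

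From the deposited RPKM, 100.0% of the low values checked were whole multiples of 1 step (within 0.05 of a read), which gave totals of 26590000 to 34420000 reads and the reads behind each value. A library at 0 allows up to 3 reads.

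log2(RPKM + 1) was tested with limma 3.58.1 (lmFit, eBayes with trend) in R 4.3.3 on 14148 genes with at least 1 RPKM in at least 2 of 8 libraries, after Benjamini-Hochberg adjustment at 0.05. Each comparison used its own 4 libraries, and the interaction used all 8. A fit was tested on simulated data with the same spread in every group. That simulation cannot show how the fits behave with the wider spread of Ctrl CLT, and no conclusion is drawn from it. Because RPKM are not counts, voom on the recovered reads served only as an alternative. Others were quantile normalization, median-of-ratios scaling, pseudocounts of 0.1 and 0.5, other filters, no trend, robust eBayes, all 8 libraries in 1 fit, a replicate block and each library left out.

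The members, the calcium pathway list, the marker lists and the tests were chosen with earlier results of these data known. The text names all members with 8 values, *Med1*, each role's extremes and called list genes, and the 3 genes most like each member. The single markers of odontoblast and bone, *Orai2*, *Orai3* and *Atp2a2* in CLT were picked after their values were seen. Some single genes that these rules would name are not reported here. List symbols were matched through RefSeq synonyms. Gene coordinates were those deposited with the RPKM values. Exon overlaps were from GENCODE M21 (mm10) and promoters from RefSeq (GRCm38.p6). Figures were drawn with matplotlib 3.10.9.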

Additional observations from a re-analysis of the deposited data

Results flagged for a closer look

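The cKO effect on 5 calcium handling genes differed between CLT and CLH by the interaction test of limma over all 8 libraries. Of all tested genes, 9.58% were called lower and 8.05% higher by the same test. The difference on the log2 scale, the effect in CLT minus that in CLH, was -8.84 for *Calb1* (adjusted p = 2.9e-05) and -3.23 for *Slc24a4* (adjusted p = 0.0051). It was -1.77 for *Stim2* (adjusted p = 0.024), -1.38 for *Atp2b1* (adjusted p = 0.019) and -0.73 for *Stim1* (adjusted p = 0.022). In each of the 5 genes both cKO CLT libraries lay below both Ctrl CLT libraries, as in 35.1% of all tested genes. *Stim1*, *Stim2* and *Atp2b1* did not pass in CLT alone. The interaction calls of *Stim1* and *Stim2* were lost with any single CLH or cKO CLT library left out. That of *Atp2b1* was lost in the same way, except without cKO CLH 2. The ameloblast, hair and muscle marker sums differed between the same libraries, and their part was not tested.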

How the results depend on the processing

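Percentages here are the share of all tested genes called in either direction under the same setting. For the genotype in CLT, 2 members were called, beside 1.75%. The count became 1 with no filter on low values (0.0152%), 0 in voom (0%) and 5 with all 8 libraries in 1 fit (43.7%). The interaction count of 5, beside 17.6%, became 4 in voom, beside 15.2%. For CLT versus CLH in Ctrl, the count of 0 became 4 with all 8 libraries in 1 fit, beside 5.92%. In cKO the count of 5, beside 74%, became 6 under median-of-ratios scaling (71.8%) and with no filter (55.6%). Each of these counts also moved with a library left out. The count in CLH stayed at 0 under all alternatives run. In fits with a library left out, a library alone in its group was assumed to vary like the others. The causes were not tested.

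Directions that reversed were those of *Orai1* in CLT (-0.53 to 0.27 with a library left out) and in the interaction (-0.78 to 0.02), both without Ctrl CLT 1, of *Stim1* in CLH (-0.01 to 0.08) without Ctrl CLH 2, of *Atp2b1* (-0.14 to 0.29) and *Atp2b4* (-0.07 to 0.14) in CLH without cKO CLH 1, and of *Stim2* from CLH to CLT in cKO (0.01) under median-of-ratios scaling. For all genes of the table, the counts lower and higher in CLT went from 237 and 11 to 0 and 0 in voom, to 3 and 0 with no filter, and to 2831 and 3352 with all 8 libraries in 1 fit, and the list's 3 lower calls to 0, 1 and 26.

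The replicate numbers were not shown to pair the libraries, since deviations of same-numbered libraries correlated from -0.19 to 0.31 and the labels name no shared litter. With the replicate block, members called were 4 in CLT, 5 in the interaction and 1 in the Ctrl region comparison. These stand beside 12.3%, 10.2% and 0.0353% of all tested genes, and 856 genes were lower and 888 higher in CLT. The replicate block added *Stim2* and *Atp2b1* in CLT. A crossed replicate block, added after seeing the data, called 1 member in CLT, *Calb1*, and not *Slc24a4*, beside 0.0636% of all tested genes. With low levels, depth limits *S100g* to the reads given.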
